A study of Homo sapiens with 19 samples.

Results

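The collagen genes of SHEP TET21N cells were followed by RNA sequencing through doxorubicin treatment and recovery. The set held every gene in the raw count table whose symbol has the form COL, a number, A and a number, with at least 20 counts summed over the 19 libraries. That gave 38 of the 43 collagen symbols in the table, which lists 23367 genes. They fell into 10 fibrillar, 8 basement membrane and 5 beaded collagen genes and 15 others. SHEP TET21N is an established human neuroblastoma line with a MYCN transgene that doxycycline shuts off. MYCN-high denotes cultures free of doxycycline and MYCN-low those kept in it. Each state was sampled untreated, after 72 h in 0.1 µg/ml doxorubicin, and 3, 8 and 14 days after the drug was washed out. Doxorubicin is an anthracycline that damages DNA through topoisomerase II. There were 2 libraries per group, labelled replicates B and C and described as biological duplicates, except for MYCN-low cells at day 14, with replicate B alone. All libraries came from 1 cell line. Since doxycycline went with the MYCN-low state throughout, MYCN level and doxycycline cannot be told apart. No dishes of untreated cells kept to the later time points are among the 10 groups, so time in culture and treatment cannot be told apart either.

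Collagens are extracellular matrix proteins built from 3 chains wound into a triple helix. Fibrillar collagens (types I, II, III, V, XI, XXIV and XXVII) pack into the fibrils of connective tissue, type IV collagen forms the network of basement membranes, and type VI collagen forms beaded microfilaments around cells. Each trimer needs its own chains: type I is usually made of COL1A1 and COL1A2 products, type III of COL3A1 products alone, and type VI of COL6A1, COL6A2 and a longer chain such as that of COL6A3. Neuroblastoma lines are often placed between an adrenergic, neuron-like state and a mesenchymal state, and matrix genes including collagens are typical of the mesenchymal one. Transcript levels say nothing of how much protein was made, secreted or laid down.

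Total counts ran from 16547663 to 27664604 per library. MYCN itself stood at 594 to 1416 CPM (gene counts relative to library size, scaled by TMM) in MYCN-high libraries and at 13.5 to 30.7 CPM in MYCN-low libraries, as labelled. Summed over 7 mesenchymal markers, levels were 1657 to 2542 CPM in MYCN-high and 4338 to 14097 CPM in MYCN-low libraries, where FN1 (fibronectin) alone averaged 98.3 CPM in untreated MYCN-high, 1140 CPM in untreated MYCN-low and 7317 CPM in MYCN-low cells at day 8. Not every marker on that list followed: PRRX1 averaged 206 CPM in untreated MYCN-high and 145 CPM in untreated MYCN-low cells, and CD44 644 and 510.2 CPM at 72 h. TWIST1 was lower in untreated MYCN-high than MYCN-low cells, at 44.6 and 129 CPM. It was higher there at day 8, at 54.8 and 33.0 CPM, and at day 14, at 65.5 and 28.3 CPM. Among adrenergic markers, PHOX2A was at 0 counts in all 19 libraries, DBH had 3 counts and TH 1 count over all of them, while HAND2 was expressed. The 5 markers of leukocytes, epithelium, endothelium and smooth muscle summed to at most 3.77 CPM in any library. The 5 listed RNAs of an RNA-quality list that the table holds summed to 2575 to 2830 CPM in untreated MYCN-high cells and to 4023 to 6534 CPM in treated ones, to 2512 and 5880 CPM in the 2 untreated MYCN-low libraries, and to 2239 to 3673 CPM in treated MYCN-low cells. Their part in the results below was not tested. Likewise 3 proliferation genes summed to 2657 to 3016 CPM in untreated MYCN-high cells and 93.4 to 334 CPM at 72 h, against 2238 to 2546 and 15.5 to 20.8 CPM in MYCN-low cells. After washout the states were further apart. MYCN-high cells had 917 to 920 CPM at day 3, 1791 to 1983 at day 8 and 2281 to 2607 at day 14. MYCN-low cells had 42.2 to 47.3, 231 to 358 and, in 1 library, 303 CPM. The later state differences thus set against each other cells unlike in these genes, whose part was not tested. In such bulk samples a change in the share of cells that make a transcript and a change in transcript per cell cannot be told apart.

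Collagen transcripts took up 0.189 to 0.292% of all gene counts in the 10 MYCN-high libraries (median 0.216%) and 0.696 to 2.14% in the 9 MYCN-low libraries (median 1.45%), with no overlap. The fibrillar genes held most of this. Their summed level was 1393 to 2143 CPM in MYCN-high and 5371 to 14642 CPM in MYCN-low libraries. The basement membrane genes summed to 248 to 648 CPM and 1167 to 4737 CPM, the beaded genes to 37.2 to 155 CPM and 334 to 820 CPM, and the others to 33.5 to 266 CPM and 150.0 to 757 CPM. Within MYCN-low cells replicates B and C were far apart in total collagen at day 8, at 2.14 and 1.08%, where replicate B was the highest of all libraries. The untreated ones, the baseline of every MYCN-low response, were also far apart, at 1.25 and 0.696%.

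**Figure D1:**
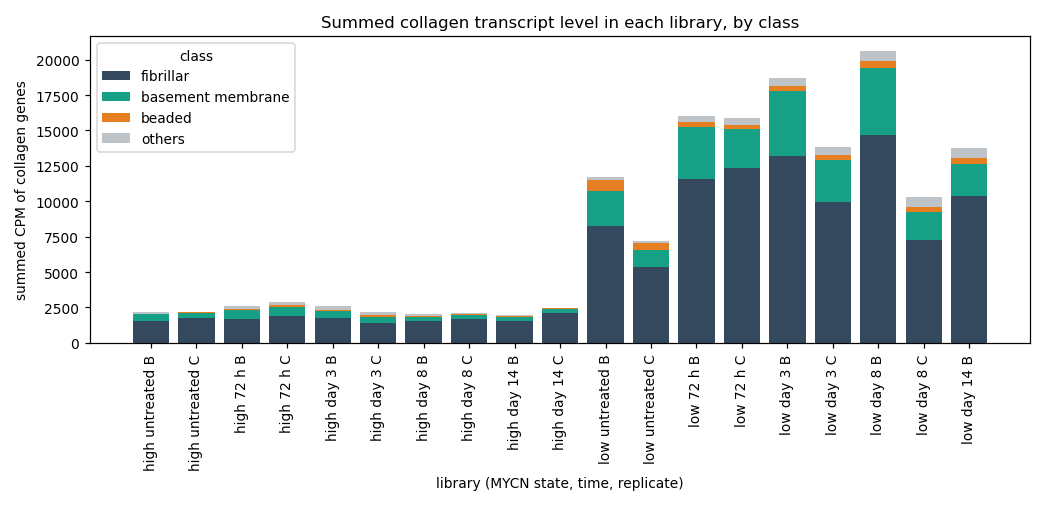
Summed CPM of the collagen genes in each of the 19 libraries, stacked by class (bars; horizontal axis, MYCN state, time and replicate; vertical axis, summed CPM). All 9 MYCN-low libraries stand above all 10 MYCN-high libraries, and the fibrillar class is the tallest block throughout.

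Levels ran over several orders of magnitude between the genes. Per kilobase of exon, COL3A1 was the highest at a mean of 610 CPM per kb over the 19 libraries, before COL5A2 at 218, COL4A1 at 87.6, COL1A1 at 67.5 and COL4A2 at 47.2 CPM per kb. This order depends on exon lengths that join all annotated transcripts of a gene. By CPM alone COL4A2, at a mean of 612 CPM, stood above COL1A1, at 454 CPM. COL3A1 alone made up 37.7 to 59.8% of collagen counts in MYCN-high libraries and 34.7 to 50.4% in MYCN-low libraries. 16 of the 38 genes had a mean of at least 5 CPM. The filter on low counts left 34 genes for testing, and COL25A1 (35 counts over the 19 libraries), COL4A3 (34), COL6A5 (21) and COL6A6 (21) were not tested. The last 2 lay just inside the limit of 20 counts, and just outside it were COL9A1 with 8 counts, COL2A1 with 7, COL23A1 with 5, COL20A1 with 3 and COL22A1 with 0.

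**Figure D2:**
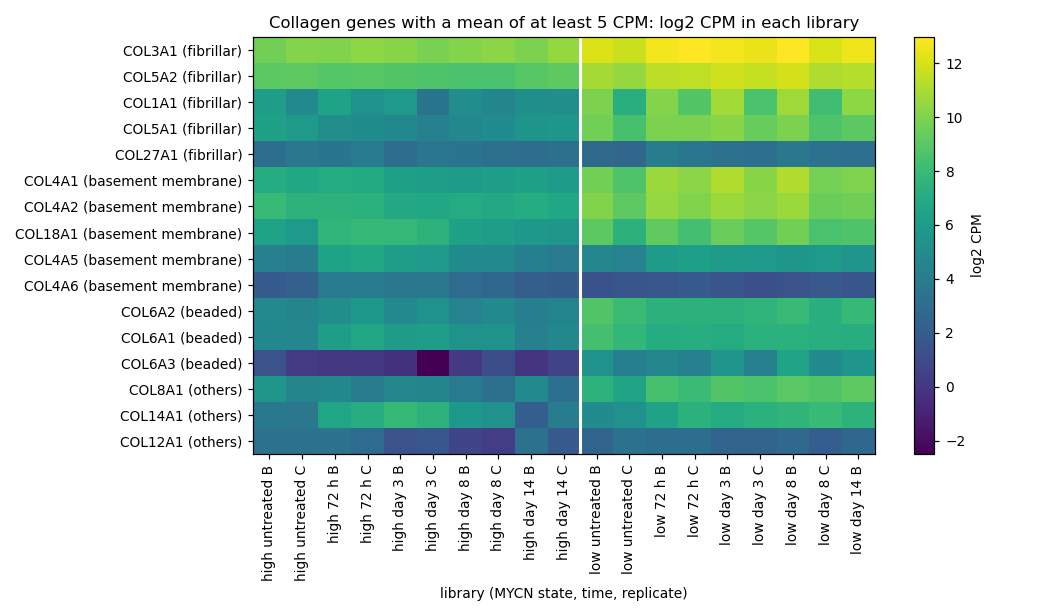
Heat map of log2 CPM for the 16 collagen genes with a mean of at least 5 CPM (rows, with their class) in each library (columns; the white line separates MYCN-high from MYCN-low). The MYCN-low side is brighter for the fibrillar, COL4A1, COL4A2 and COL6 rows, and COL4A6 is brighter on the MYCN-high side.

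The first question was how the 2 MYCN states differed at each time. A gene was called at an adjusted p under 0.05 over all 14793 genes tested with edgeR, and differences are log2 fold changes of MYCN-high against MYCN-low with their standard error. In untreated cells 16 of 34 collagen genes were lower in MYCN-high cells and 0 higher, where 18.6% of all genes tested were lower and 16.5% higher. At 72 h 13 were lower and 1 higher (14.4% and 15.5% of all genes). At day 3 these were 16 and 2 (14.8% and 17%), at day 8 21 and 2 (20.5% and 23.4%), and at day 14 21 and 0 (20.5% and 21.4%). Over the mean of the 5 times 23 were lower and 3 higher, where 32.1% of all genes were called in each direction. The median log2 difference of the 34 genes lay between -1.14 at 72 h and -2.83 at day 14 (-2.79 with genes at 0 counts set to their bound), against medians of all genes between -0.04 and 0.04. In 12 genes every MYCN-low library lay above every MYCN-high library, an order found in 5.66% of all genes tested: COL3A1, COL5A2, COL1A1, COL5A1, COL5A3, COL1A2, COL4A1, COL4A2, COL6A1, COL6A2, COL6A3 and COL8A1. The reverse order held for 1 collagen gene, COL4A6, and for 6.61% of all genes. The untreated count of 16 fell to 10 without MYCN-low untreated replicate B and to 9 without MYCN-high untreated replicate C. In both of these fits calls over all genes fell as well. Scaling to the ERCC spike-in RNAs, whose share of counts ranged from 0.0116 to 0.537% between libraries, left few calls of any gene. Among collagen genes it left 0 calls at each time from untreated to day 8, 1 at day 14 and 9 over the mean of the times. Over all genes tested it left 0, 5, 4, 0 and 31 calls at the 5 times and 1947 over their mean.

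**Figure D3:**
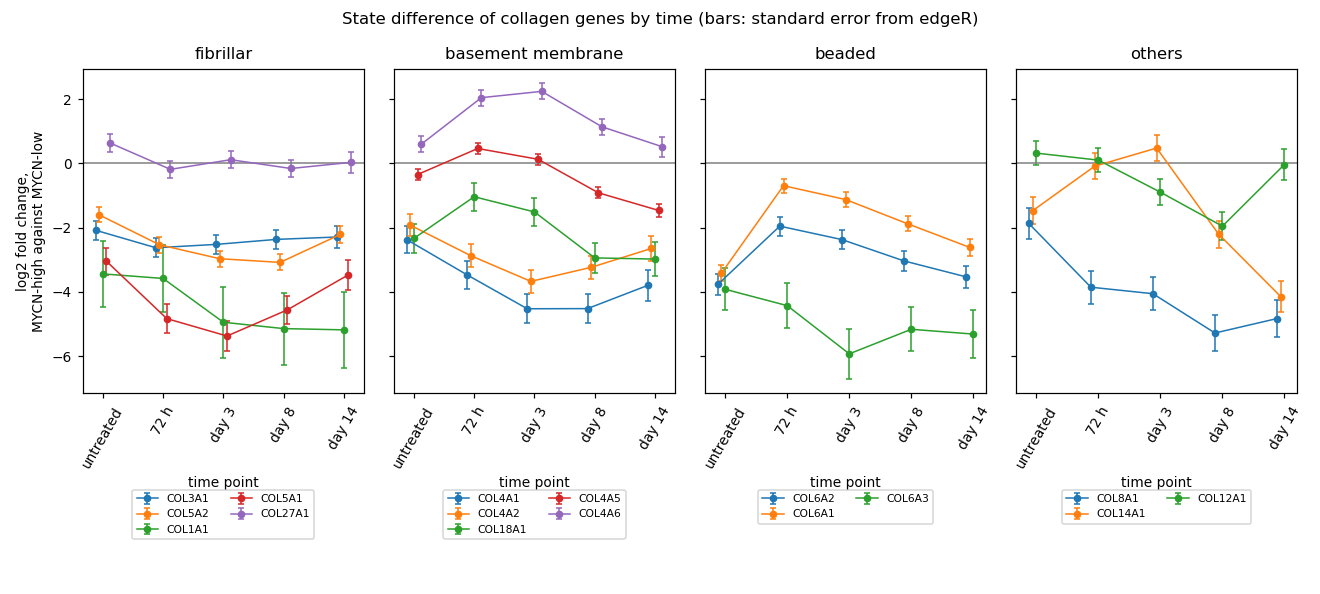
Log2 fold change of MYCN-high against MYCN-low (points, with standard error bars from the fit) at the 5 time points for the 16 genes with a mean of at least 5 CPM, one panel per class. Most points lie below 0, COL4A6 lies above it, and the beaded and basement membrane panels show genes whose difference narrows at 72 h.

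The second question was how each state responded to the drug. In MYCN-high cells 9 collagen genes rose and 2 fell at 72 h against untreated cells (18.3% and 17.9% of all genes), 7 rose and 3 fell at day 3 (15.1% and 15.7%), and 3 rose and 2 fell at day 8 (4.49% and 4.09%). Without the filter on low counts the split was 8 and 8 at day 3 and 4 and 8 at day 8, with 4925 and 2080 of all genes called in either direction. At day 14 edgeR called 0 collagen genes and 0% of all genes. There 3 of 34 collagen genes had an unadjusted p under 0.05 in that test, and the share over all genes was not computed. DESeq2's Wald test called 0 of its 25 tested collagen genes and 65 of all genes. Without the filter 0 collagen genes rose and 5 fell, with 309 of all genes called in either direction. In MYCN-low cells 11 rose and 2 fell at 72 h (10.2% and 12.1%), 10 and 2 at day 3 (10.5% and 12.7%), 10 and 1 at day 8 (10.2% and 14.6%), and 7 and 1 at day 14 (7.63% and 10.7%). The difference between the responses, MYCN-high minus MYCN-low, was called for 6 genes at 72 h (10.7% of all genes), 7 at day 3 (7.58%), 6 at day 8 (6.35%) and 3 at day 14 (7.41%). At 72 h 5 were higher and 1 lower, against 6 and 6 without the filter, where 2627 of all genes were called. The 4 responses of a state share its 2 untreated libraries. Calls over all genes fell when 1 library of a response that had calls was left out, except that they rose without MYCN-low untreated replicate C. In the 72 h difference calls over all genes rose without that library or MYCN-high 72 h replicate B and fell in the other such fits. The collagen counts moved as well when 1 library was left out. At 72 h in MYCN-high cells they were 6 and 5 without untreated replicates B and C, and 7 without either 72 h replicate. At day 3 the MYCN-high count of 10 became 6 without untreated replicate C or day 3 replicate B. At day 8 it was 2 without untreated or day 8 replicate B, and 3 without untreated or day 8 replicate C. In MYCN-low cells the 72 h count of 13 became 7, 6 and 5 without untreated replicate C, 72 h replicate B and 72 h replicate C. The day 3 count of 12 became 4 without day 3 replicate B, the day 8 count of 11 became 4 without day 8 replicate B, and the day 14 count of 8 became 5 without untreated replicate C. The 6 differences of 72 h became 1 without MYCN-low 72 h replicate B or MYCN-high 72 h replicate C, 2 without either untreated MYCN-high replicate, and 3 without MYCN-low untreated replicate B or 72 h replicate C. The 7 of day 3 became 1 without MYCN-high untreated replicate B, 2 without MYCN-low day 3 replicate B or MYCN-high day 3 replicate C, and 4 without MYCN-high untreated replicate C or day 3 replicate B. The 6 of day 8 became 0 without MYCN-high untreated replicate B or day 8 replicate C, and 2 without MYCN-high untreated replicate C or MYCN-low day 8 replicate B. The 3 of day 14 became 0 without MYCN-high untreated replicate B, 1 without MYCN-high day 14 replicate C and 6 without MYCN-low untreated replicate C. Under ERCC scaling 1 collagen gene was called at 72 h in MYCN-high cells and 0 in every other response and difference. Over all genes that scaling called 70 at 72 h in MYCN-high and 60 in MYCN-low cells, and 0 in the 72 h difference.

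Among the fibrillar genes, 6 of 10 were lower in untreated MYCN-high cells (18.6% of all genes tested), 6 at 72 h (14.4%), 7 at day 3 (14.8%), 9 at day 8 (20.5%) and 8 at day 14 (20.5%), and 0 were higher at any of these times. COL3A1 encodes the single chain of type III collagen. COL3A1 measured 809 and 1073 CPM in untreated MYCN-high cells, 1068 and 1309 at 72 h, 1198 and 939 at day 3, 1095 and 1258 at day 8 and 981 and 1479 at day 14. MYCN-low cells held COL3A1 at 4555 and 3404 CPM untreated, 6675 and 7996 at 72 h, 6492 and 5777 at day 3, 7830 and 4289 at day 8 and 6022 at day 14. The states did not overlap, and the difference was -2.08 ± 0.29 (adjusted p 0.000113) in untreated cells and -2.63 ± 0.30 (adjusted p 1.86e-05) at 72 h. The MYCN-low rise at 72 h of 0.88 ± 0.28 (adjusted p 0.0345) was no longer called without MYCN-low untreated C (0.67, adjusted p 0.143), MYCN-low 72 h B (0.99, adjusted p 0.0734) or MYCN-low 72 h C (0.72, adjusted p 0.179).

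COL5A2 and COL5A1 encode the 2 main chains of type V collagen, which co-assembles with types I and III and limits fibril width. COL5A2 measured 545 and 562 CPM in untreated MYCN-high cells, 477 and 503 at 72 h, 458 and 410.4 at day 3, 372 and 371 at day 8 and 489 and 570.0 at day 14. MYCN-low cells held COL5A2 at 1909 and 1455 CPM untreated, 2780 and 2890 at 72 h, 3705 and 3084 at day 3, 4056 and 2226 at day 8 and 2455 at day 14. The difference widened from -1.60 ± 0.23 (adjusted p 0.000157) untreated to -3.08 ± 0.25 (adjusted p 7.01e-07) at day 8. COL5A1 measured 82.6 and 58.4 CPM in untreated MYCN-high cells, 35.3 and 32.8 at 72 h, 26.1 and 18.7 at day 3, 26.2 and 32 at day 8 and 45 and 49.7 at day 14. MYCN-low cells held COL5A1 at 809 and 355 CPM untreated, 965 and 969.6 at 72 h, 1185 and 673 at day 3, 957 and 414 at day 8 and 529 at day 14. MYCN-high COL5A1 had its lowest values at day 3, while at 72 h and day 3 MYCN-low libraries stood at 673 CPM or more. The difference was -3.04 ± 0.42 (adjusted p 9.97e-05) untreated, -4.83 ± 0.45 (adjusted p 4.48e-06) at 72 h and -5.37 ± 0.47 (adjusted p 2.44e-06) at day 3. COL5A1 fell in MYCN-high cells by the TMM-scaled fit, -1.05 ± 0.39 (adjusted p 0.048) at 72 h, where ERCC scaling gave 1.26, and -1.65 ± 0.40 (adjusted p 0.00585) at day 3. The 72 h call was lost without MYCN-high untreated B (-0.77, adjusted p 0.253), MYCN-high untreated C (-1.28, adjusted p 0.0583), MYCN-high 72 h B (-1.10, adjusted p 0.121) or MYCN-high 72 h C (-0.99, adjusted p 0.168). The day 3 call was lost without MYCN-high untreated B (-1.36, adjusted p 0.054) or MYCN-high day 3 C (-1.43, adjusted p 0.0683). With the replicate letter as a block, COL5A1 was also called in MYCN-high cells at day 8 (-1.22, adjusted p 0.0249). Per kilobase, COL5A2 was above COL5A1 by a median ratio of 15.2 in MYCN-high and 4.95 in MYCN-low libraries, and the ranges of 7.97 to 26.5 and 2.85 to 6.49 did not overlap.

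COL5A2 rose in MYCN-low cells, by 0.75 ± 0.23 (adjusted p 0.0281) at 72 h and 1.01 ± 0.23 (adjusted p 0.0052) at day 3. Left out, single libraries ended these calls: at 72 h MYCN-low untreated C (0.55, adjusted p 0.126), MYCN-low 72 h B (0.77, adjusted p 0.095) or MYCN-low 72 h C (0.70, adjusted p 0.119), and at day 3 MYCN-low day 3 B (0.87, adjusted p 0.0521). The responses of the states differed for COL5A2 at day 3 by -1.36 ± 0.32 (adjusted p 0.0202), lost without MYCN-high untreated B (-1.36, adjusted p 0.0582), MYCN-high untreated C (-1.33, adjusted p 0.0666), MYCN-low day 3 B (-1.21, adjusted p 0.0864) or MYCN-high day 3 C (-1.29, adjusted p 0.0951).

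The 2 genes of type I collagen were far apart in level. COL1A1 measured 73.2 and 28.3 CPM in untreated MYCN-high cells, 88.4 and 41.2 at 72 h, 59.4 and 11.3 at day 3, 34.3 and 24.1 at day 8 and 37.3 and 34.7 at day 14. MYCN-low cells held COL1A1 at 954 and 147 CPM untreated, 1097 and 455 at 72 h, 1795 and 383 at day 3, 1758 and 306 at day 8 and 1306 at day 14. COL1A2 measured 0.39 and 0.185 CPM in untreated MYCN-high cells, 0.255 and 0.191 at 72 h, 0.217 and 0.297 at day 3, 0 and 0.158 at day 8 and 0.176 and 0.151 at day 14. MYCN-low cells held COL1A2 at 3.08 and 0.918 CPM untreated, 1.41 and 2.8 at 72 h, 1.76 and 1.11 at day 3, 2.55 and 1.24 at day 8 and 2.39 at day 14. COL1A1 was abundant in MYCN-low cells while COL1A2 never passed 3.08 CPM in any library, which is 0 to 58 counts. Per kilobase the COL1A1 to COL1A2 ratio had a median of 277 in the 9 MYCN-low libraries (129 to 819) and of 171 in the 9 MYCN-high libraries with a COL1A2 count (30.6 to 280). In the tenth, day 8 replicate B, COL1A2 had 0 counts. Both genes were lower in MYCN-high cells, by -3.44 ± 1.03 (adjusted p 0.0176) and -2.76 ± 0.80 (adjusted p 0.0146) untreated. At day 8 the COL1A1 difference was -5.14 ± 1.12 (adjusted p 0.00161), and COL1A2 had 3 counts in MYCN-high and 88 in MYCN-low cells, a ratio of 24.0 with a 95% counting interval of 7.96 to 119 (adjusted p 0.00128), which covers counting error only, as reads without molecular identifiers are not independent molecules. The untreated COL1A1 call was lost without MYCN-low untreated B (-1.54, adjusted p 0.319) or MYCN-high untreated C (-2.94, adjusted p 0.139), and that of COL1A2 without MYCN-low untreated B (-1.66, adjusted p 0.188) or MYCN-high untreated C (-2.35, adjusted p 0.12).

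COL1A1 also separated the replicates. Replicate B was above replicate C in all 9 groups of 2, by 1.08 to 6.49 times, the widest gap being in untreated MYCN-low cells. COL4A2, COL8A1 and COL15A1 kept the same order in all 9 groups, so 4 of 34 collagen genes did, against 1.12% of all genes tested. None was higher in replicate C in all 9, an order shown by 0.825% of all genes. COL3A1 had replicate B above C in 4 groups and C above B in 5. Of the 16 genes with at least 5 CPM, 4 were more than 2-fold apart between the untreated MYCN-low replicates and 6 between those of day 8, against 1 to 3 in the other groups.

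**Figure D4:**
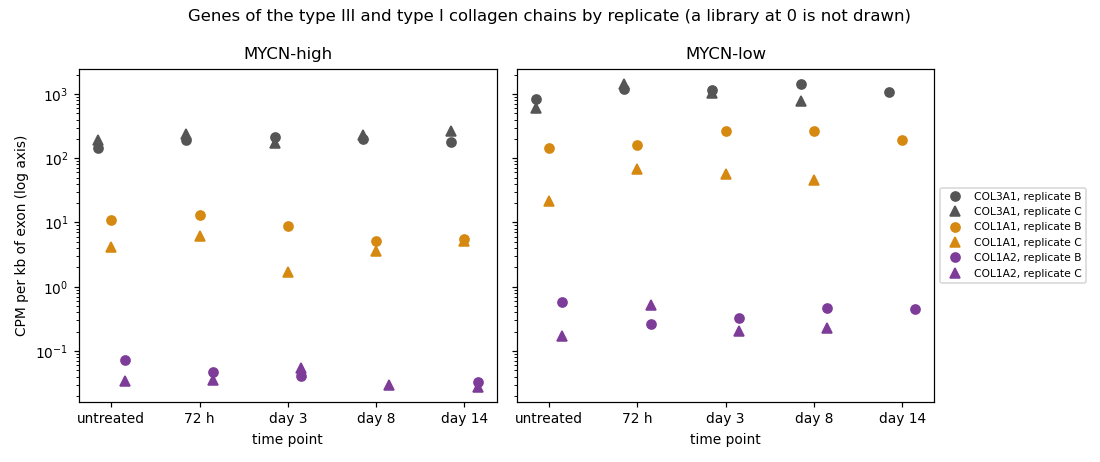
CPM per kilobase of exon (log axis) of COL3A1, COL1A1 and COL1A2 at each time in MYCN-high (left) and MYCN-low (right) cells, with circles for replicate B and triangles for replicate C. COL1A2 lies far below COL1A1 in every library, and the COL1A1 circle lies above its triangle in each of the 9 groups of 2.

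COL5A3, COL11A1 and COL24A1 are minor fibrillar genes that were close to 0 in MYCN-high cells. COL5A3 encodes an alternative chain of type V collagen. COL5A3 measured 0.536 and 0.185 CPM in untreated MYCN-high cells, 0 and 0 at 72 h, 0 and 0 at day 3, 0 and 0 at day 8 and 0 and 0 at day 14. MYCN-low cells held COL5A3 at 4.89 and 1.87 CPM untreated, 2.24 and 2.32 at 72 h, 3.57 and 2.63 at day 3, 16.3 and 2.83 at day 8 and 11.6 at day 14. With a floor of 3 counts over the group, the MYCN-low group mean of COL5A3 was at least 33.8-fold higher at 72 h, 36.5-fold at day 3, 129-fold at day 8 and 142-fold at day 14, and these calls had adjusted p of 0.00238, 0.00178, 0.000186 and 0.00028. These folds do not bound a single library: at day 8 the MYCN-low replicates of COL5A3 were 16.3 and 2.83 CPM, and day 14 had 1 library. Its day 3 change in MYCN-high cells was called with the replicate block (adjusted p 0.0299) and not without it. COL11A1 measured 0.146 and 0 CPM in untreated MYCN-high cells, 0.17 and 0.144 at 72 h, 0.326 and 0.0593 at day 3, 0 and 0 at day 8 and 0.0585 and 0 at day 14. MYCN-low cells held COL11A1 at 0 and 0.0399 CPM untreated, 0.633 and 0.386 at 72 h, 1.4 and 0.961 at day 3, 2.41 and 0.758 at day 8 and 0.458 at day 14. COL11A1, a type XI chain, had 1 count over both untreated MYCN-low libraries and 71 over those of day 8, a ratio of 62.2 with a 95% counting interval of 10.8 to 2492. At day 8 both MYCN-high libraries were at 0, so the MYCN-low group mean, from 2.41 and 0.758 CPM, was at least 21.3-fold higher.

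COL24A1 measured 0.244 and 0.231 CPM in untreated MYCN-high cells, 0.679 and 0.431 at 72 h, 0.272 and 0.771 at day 3, 0.604 and 0.58 at day 8 and 0.468 and 0.151 at day 14. MYCN-low cells held COL24A1 at 0 and 0.16 CPM untreated, 1.61 and 1.06 at 72 h, 2.49 and 2.07 at day 3, 5.01 and 2.31 at day 8 and 1.73 at day 14. COL24A1 rose in MYCN-low cells at every treated time, by 3.81 ± 0.87 (adjusted p 0.00535) at 72 h and 5.26 ± 0.86 (adjusted p 0.00044) at day 8. The 72 h and day 8 calls held without each library, but without MYCN-low untreated replicate C, which left the untreated group at 0 counts, the values were 7.77 and 9.26. COL27A1, whose product forms fine fibrils in cartilage, did not follow the other fibrillar genes. COL27A1 measured 8.43 and 12.5 CPM in untreated MYCN-high cells, 11.3 and 14 at 72 h, 8.21 and 11.9 at day 3, 11 and 9.18 at day 8 and 8.55 and 9.47 at day 14. MYCN-low cells held COL27A1 at 7.31 and 6.22 CPM untreated, 16.7 and 12 at 72 h, 9.77 and 8.75 at day 3, 12.8 and 9.79 at day 8 and 8.81 at day 14. Its state difference was not called at any time and was 0.63 ± 0.27 (adjusted p 0.0801) in untreated cells. It rose at 72 h in MYCN-low cells by 1.09 ± 0.27 (adjusted p 0.00908), a call lost without MYCN-low 72 h B (0.82, adjusted p 0.107). COL11A2 ranged from 0.105 to 0.652 CPM in MYCN-high and from 0.165 to 2.44 CPM in MYCN-low libraries, and was lower in MYCN-high cells at day 8 by -2.51 ± 0.66 (adjusted p 0.00579) and at day 14 by -3.86 ± 0.77 (adjusted p 0.000925). The day 8 call was lost without MYCN-high day 8 C (-1.91, adjusted p 0.0702).

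The basement membrane genes held 2 patterns. COL4A1 and COL4A2, whose products form the common type IV trimer, were lower in MYCN-high cells at all times. COL4A1 measured 136 and 104 CPM in untreated MYCN-high cells, 135 and 123 at 72 h, 80.0 and 67.8 at day 3, 61.2 and 73.3 at day 8 and 82.9 and 64.5 at day 14. MYCN-low cells held COL4A1 at 824 and 418 CPM untreated, 1585 and 1267 at 72 h, 2192 and 1209 at day 3, 2247 and 838 at day 8 and 1024 at day 14. COL4A2 measured 240.0 and 184 CPM in untreated MYCN-high cells, 180.1 and 168 at 72 h, 113 and 112 at day 3, 132 and 116 at day 8 and 136 and 112 at day 14. MYCN-low cells held COL4A2 at 1058 and 550.0 CPM untreated, 1474 and 1067 at 72 h, 1627 and 1243 at day 3, 1618 and 721 at day 8 and 776 at day 14. The state difference of COL4A1 was -2.37 ± 0.41 (adjusted p 0.000511) untreated and -4.52 ± 0.45 (adjusted p 5.88e-06) at day 3. For COL4A2 it was -1.92 ± 0.34 (adjusted p 0.000619) and -3.67 ± 0.37 (adjusted p 5.92e-06). In MYCN-low cells COL4A1 rose by 1.20 ± 0.39 (adjusted p 0.0404) at 72 h, lost without MYCN-low untreated C (0.77, adjusted p 0.208), MYCN-low 72 h B (1.01, adjusted p 0.19) or MYCN-low 72 h C (1.33, adjusted p 0.0817), and 1.45 ± 0.40 (adjusted p 0.0157) at day 3, lost without MYCN-low untreated C (1.03, adjusted p 0.0992) or MYCN-low day 3 B (0.95, adjusted p 0.176). No MYCN-low response of COL4A2 was called without a replicate block, and its value at 72 h was 0.66 ± 0.33 (adjusted p 0.166). With the replicate letter as a block it was called there at 72 h (0.70, adjusted p 0.041) and at day 3 (0.88, adjusted p 0.0128). Per kilobase the COL4A1 to COL4A2 ratio was 0.800 to 1.29 in MYCN-high and 1.31 to 2.39 in MYCN-low libraries. The level of this ratio depends on the exon lengths used, 7.525 kb for COL4A1 and 12.971 kb for COL4A2. The order of the states in it does not. Without lengths COL4A2 was the higher in untreated MYCN-high cells, at a mean of 212 against 120 CPM.

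The difference between the day 3 responses was -2.15 ± 0.56 (adjusted p 0.0311) for COL4A1, lost without MYCN-high untreated B (-1.91, adjusted p 0.104), MYCN-high untreated C (-2.32, adjusted p 0.0569), MYCN-high day 3 B (-2.31, adjusted p 0.075), MYCN-low day 3 B (-1.64, adjusted p 0.141) or MYCN-high day 3 C (-2.04, adjusted p 0.123), and -1.75 ± 0.47 (adjusted p 0.0359) for COL4A2, lost without MYCN-high untreated B (-1.52, adjusted p 0.125), MYCN-high untreated C (-1.91, adjusted p 0.0617), MYCN-high day 3 B (-1.80, adjusted p 0.0957), MYCN-low day 3 B (-1.52, adjusted p 0.13), MYCN-high day 3 C (-1.74, adjusted p 0.121) or MYCN-low day 3 C (-1.91, adjusted p 0.0564). In MYCN-high cells COL4A2 was lower at day 3 by the TMM-scaled fit, -0.91 ± 0.33 (adjusted p 0.0494), where ERCC scaling gave 0.62. That call was lost without MYCN-high untreated B (-0.69, adjusted p 0.252), MYCN-high untreated C (-1.09, adjusted p 0.0714), MYCN-high day 3 B (-0.97, adjusted p 0.149) or MYCN-high day 3 C (-0.90, adjusted p 0.168).

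COL4A1 and COL4A2 lie head to head on chromosome 13, with 126 bases between their start sites in the RefSeq promoter windows of GRCh38.p14. The same layout holds for COL4A5 and COL4A6 on chromosome X, with 379 bases between starts, and for COL4A3 and COL4A4 on chromosome 2, with 418. The count files used build hg19, so these positions describe the genes and not the reads. The stretch between the starts of COL4A1 and COL4A2, both lower in every MYCN-high library, is shown with the 250 bases before COL4A5, whose partner COL4A6 was higher in every MYCN-high library. Capitals mark matches on either strand to 4 motifs. One is CACGTG, the E-box that MYC-family factors bind. Another is GGGCGG, known as the GC box. The CCAAT box is the next of them. The last is the TATA box, searched as TATAAA.
COL4A1-COL4A2 interval, chr13:110307158-110307283, plus strand: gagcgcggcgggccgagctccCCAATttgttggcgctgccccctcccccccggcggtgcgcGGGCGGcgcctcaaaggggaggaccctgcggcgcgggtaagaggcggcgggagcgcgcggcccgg
COL4A5, chrX:108439588-108439837, plus strand: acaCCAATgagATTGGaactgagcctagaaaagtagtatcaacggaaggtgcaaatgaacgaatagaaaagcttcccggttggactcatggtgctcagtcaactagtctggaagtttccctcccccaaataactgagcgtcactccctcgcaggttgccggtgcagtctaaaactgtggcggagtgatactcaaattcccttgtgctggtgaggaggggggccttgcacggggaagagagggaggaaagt
The COL4A1-COL4A2 interval was 80.2% G and C and held 1 GC box and 1 CCAAT box. The COL4A5 stretch was 51.2% G and C and held 2 CCAAT boxes and no GC box. Promoter windows (250 bases before to 50 after the start) matched 29 of the 38 genes, the others being COL14A1, COL1A1, COL1A2, COL3A1, COL5A2, COL6A1, COL6A5, COL8A1 and COL9A3. The E-box was in 0 of the 29 and in 7.26% of all 35116 windows. GC boxes were in 69.0% of the 29 against 45.0% of all windows, CCAAT in 37.9% against 34.6%, and TATAAA in 24.1% against 11.5%, where a gene with several windows counted if any held the motif. The 29 genes had 40 windows. The share over all windows counted each window alone, so the any-window rule can raise the gene shares against it. A match is not a bound site, and no match says only that these letters are not in these windows.

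COL4A5 and COL4A6, which supply another type IV network, were the second pattern, a rise in MYCN-high cells under treatment. Between the states the 2 genes went opposite ways. COL4A6 was higher in every MYCN-high library. COL4A5 was called lower in MYCN-high cells at day 8, at day 14 and over the mean of the times. These COL4A5 calls held without each library that could be left out and were lost with ERCC scaling. COL4A5 measured 19 and 16.5 CPM in untreated MYCN-high cells, 89.6 and 104 at 72 h, 69.8 and 58.6 at day 3, 30.7 and 28.3 at day 8 and 18.5 and 15.4 at day 14. MYCN-low cells held COL4A5 at 24.9 and 20.3 CPM untreated, 64.3 and 76.4 at 72 h, 60.5 and 57.1 at day 3, 51.5 and 59.7 at day 8 and 46.8 at day 14. COL4A6 measured 3.95 and 4.77 CPM in untreated MYCN-high cells, 14.5 and 15 at 72 h, 13.1 and 13.2 at day 3, 7.44 and 6.65 at day 8 and 4.62 and 4.28 at day 14. MYCN-low cells held COL4A6 at 2.69 and 3.07 CPM untreated, 3.26 and 3.86 at 72 h, 3.08 and 2.48 at day 3, 2.75 and 3.62 at day 8 and 3.11 at day 14. Both rose in MYCN-high cells at 72 h, COL4A5 by 2.45 ± 0.18 (adjusted p 5.36e-07) and COL4A6 by 1.75 ± 0.24 (adjusted p 4.82e-05), and were still up at day 3 by 1.85 ± 0.18 (adjusted p 1.25e-05) and 1.59 ± 0.24 (adjusted p 0.000222). In MYCN-low cells COL4A5 rose by 1.64 ± 0.18 (adjusted p 6.70e-06) at 72 h and 1.05 ± 0.21 (adjusted p 0.00317) at day 14, while COL4A6 stayed between 2.48 and 3.86 CPM and was called at no time. The 4 COL4A5 and COL4A6 calls in MYCN-high cells and the 2 of COL4A5 in MYCN-low cells held without each library that could be left out. For the MYCN-low call at day 14 these were the untreated libraries only, as its day 14 group has 1 library. At day 14 MYCN-high COL4A5 was at 18.5 and 15.4 CPM, close to the untreated 19 and 16.5 CPM, whereas the MYCN-low library was at 46.8 CPM.

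The states differed in these responses. For COL4A6 the difference was 1.45 ± 0.35 (adjusted p 0.018) at 72 h, lost without MYCN-high untreated B (1.35, adjusted p 0.0633), MYCN-low 72 h B (1.35, adjusted p 0.0721) or MYCN-high 72 h C (1.45, adjusted p 0.0596), and 1.65 ± 0.35 (adjusted p 0.0111) at day 3, lost without MYCN-high untreated B (1.54, adjusted p 0.0504). For COL4A5 it was 0.81 ± 0.25 (adjusted p 0.0484) at 72 h and -1.12 ± 0.28 (adjusted p 0.025) at day 14. The first was also lost with DESeq2 size factors (0.80, adjusted p 0.0552) and without the filter (0.81, adjusted p 0.0607). It was lost without MYCN-high untreated B (0.95, adjusted p 0.0727), MYCN-low untreated B (0.66, adjusted p 0.147), MYCN-high untreated C (0.73, adjusted p 0.159), MYCN-low 72 h B (0.71, adjusted p 0.158), MYCN-high 72 h C (0.72, adjusted p 0.167) or MYCN-low 72 h C (0.97, adjusted p 0.0625), and the second without MYCN-high untreated B (-1.03, adjusted p 0.0934) or MYCN-high day 14 C (-1.01, adjusted p 0.0872). Per kilobase, COL4A5 stood above COL4A6 by 3.05 to 6.14 times in MYCN-high and 5.82 to 20.3 times in MYCN-low libraries.

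COL18A1 and COL15A1 encode the multiplexin collagens, whose end fragments include endostatin. COL18A1 measured 87.6 and 55.3 CPM in untreated MYCN-high cells, 202 and 237 at 72 h, 219 and 182 at day 3, 81.8 and 72.3 at day 8 and 53.6 and 51.2 at day 14. MYCN-low cells held COL18A1 at 545 and 176 CPM untreated, 574 and 329 at 72 h, 677 and 466 at day 3, 809 and 375 at day 8 and 413 at day 14. The 72 h rise in MYCN-high cells was 1.62 ± 0.44 (adjusted p 0.00986) and that at day 3 was 1.49 ± 0.44 (adjusted p 0.0188). They were lost, respectively, without MYCN-high untreated C (1.32, adjusted p 0.104) and without MYCN-high untreated C (1.20, adjusted p 0.153) or MYCN-high day 3 B (1.30, adjusted p 0.105). In MYCN-low cells no response of COL18A1 was called, and the untreated replicates were 3.10-fold apart. Its state difference was -2.33 ± 0.46 (adjusted p 0.00122) untreated, -1.30 without MYCN-low untreated replicate B, and -2.94 ± 0.47 (adjusted p 0.000125) at day 8. COL15A1 ranged from 0.0925 to 1.68 CPM in MYCN-high and from 0.16 to 7.71 CPM in MYCN-low libraries, and rose in MYCN-low cells at day 14 by 3.60 ± 1.00 (adjusted p 0.0217), lost without MYCN-low untreated C (2.79, adjusted p 0.0786). The replicate block added COL15A1 calls at 72 h in MYCN-low (2.02, adjusted p 0.0136) and at day 3 in MYCN-high cells (1.99, adjusted p 0.0165).

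COL4A4, a chain of the type IV network of the kidney filter, was called in the MYCN-low responses at 72 h and day 3. COL4A4 measured 0.0975 and 0.0463 CPM in untreated MYCN-high cells, 0.17 and 0 at 72 h, 0.272 and 0 at day 3, 0.0465 and 0.0527 at day 8 and 0.0585 and 0.0504 at day 14. MYCN-low cells held COL4A4 at 0.33 and 0.0798 CPM untreated, 3.26 and 3.33 at 72 h, 2.4 and 1.37 at day 3, 1.33 and 0.448 at day 8 and 0.611 at day 14. It rose in MYCN-low cells at 72 h by 4.05 ± 0.97 (adjusted p 0.00736), a call that held without each library. The day 3 rise, 3.24 ± 0.96 (adjusted p 0.0241), was lost without MYCN-low untreated C (2.48, adjusted p 0.106) or MYCN-low day 3 B (2.77, adjusted p 0.124). The 72 h state difference was -5.13 ± 1.05 (adjusted p 0.00187), or -9.08 without MYCN-high 72 h replicate B. The difference between the 72 h responses was not called for COL4A4 and was -3.76 ± 1.85 (adjusted p 0.196). COL4A3, its head-to-head partner and too low to test, was at most 0.306 CPM in any library.

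The 3 tested beaded genes were lower in MYCN-high cells at every time in the TMM-scaled fit, where 14.4 to 20.5% of all genes were. COL6A1 measured 27 and 24.9 CPM in untreated MYCN-high cells, 70.1 and 99.4 at 72 h, 65 and 72.5 at day 3, 41.1 and 44 at day 8 and 18.7 and 26.4 at day 14. MYCN-low cells held COL6A1 at 336 and 218 CPM untreated, 135 and 139 at 72 h, 131 and 169 at day 3, 165 and 148 at day 8 and 138 at day 14. COL6A2 measured 28 and 23.8 CPM in untreated MYCN-high cells, 36.1 and 54.9 at 72 h, 28 and 42.5 at day 3, 20.6 and 30.1 at day 8 and 17.6 and 22.1 at day 14. MYCN-low cells held COL6A2 at 441 and 264 CPM untreated, 176 and 176 at 72 h, 173 and 191 at day 3, 253 and 163 at day 8 and 229 at day 14. COL6A1 and COL6A2 are neighbours on chromosome 21. In untreated cells the differences were -3.42 ± 0.24 (adjusted p 2.87e-06) for COL6A1 and -3.77 ± 0.32 (adjusted p 7.69e-06) for COL6A2. At 72 h they had narrowed to -0.69 ± 0.22 (adjusted p 0.0282) and -1.95 ± 0.30 (adjusted p 0.000191), and with ERCC scaling they had the opposite sign, 1.59 and 0.29, as did COL6A1 at day 3, 0.71. The 72 h call of COL6A1 was lost without MYCN-high 72 h B (-0.47, adjusted p 0.204), MYCN-low 72 h B (-0.73, adjusted p 0.0867) or MYCN-low 72 h C (-0.67, adjusted p 0.103).

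The narrowing came from both sides. COL6A1 rose in MYCN-high cells, by 1.71 ± 0.23 (adjusted p 4.01e-05) at 72 h and 1.40 ± 0.23 (adjusted p 0.000375) at day 3, and was not called at day 8, at 0.71 ± 0.23 (adjusted p 0.0649). Both rises held without each library. In MYCN-low cells COL6A1 was lower than untreated at 72 h by -1.01 ± 0.22 (adjusted p 0.00428), at day 3 by -0.89 ± 0.22 (adjusted p 0.00967), at day 8 by -0.82 ± 0.22 (adjusted p 0.014), where ERCC scaling gave 0.37, and at day 14 by -1.001 ± 0.28 (adjusted p 0.0234). All of these leaned on untreated replicate B, the highest COL6A1 library. The 72 h call was lost without MYCN-low untreated B (-0.67, adjusted p 0.0537), that of day 3 without MYCN-low untreated B (-0.54, adjusted p 0.116) or MYCN-low day 3 B (-0.72, adjusted p 0.104), that of day 8 without MYCN-low untreated B (-0.48, adjusted p 0.16), MYCN-low day 8 B (-0.87, adjusted p 0.0616) or MYCN-low day 8 C (-0.74, adjusted p 0.101), and that of day 14 without MYCN-low untreated B (-0.65, adjusted p 0.111).

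The responses of COL6A1 differed between the states by 2.72 ± 0.32 (adjusted p 0.000666) at 72 h, 2.29 ± 0.32 (adjusted p 0.00124) at day 3 and 1.54 ± 0.32 (adjusted p 0.0126) at day 8. The first 2 held without each library, and the last was lost without MYCN-high untreated B (1.59, adjusted p 0.0518), MYCN-high untreated C (1.46, adjusted p 0.0572) or MYCN-high day 8 C (1.49, adjusted p 0.0563). For COL6A2 the 72 h response was 0.81 ± 0.29 (adjusted p 0.041) in MYCN-high and -1.001 ± 0.29 (adjusted p 0.0213) in MYCN-low cells, lost without MYCN-high untreated B (0.95, adjusted p 0.0837), MYCN-high untreated C (0.70, adjusted p 0.201) or MYCN-high 72 h C (0.49, adjusted p 0.31) in the first and without MYCN-low untreated B (-0.59, adjusted p 0.214), MYCN-low 72 h B (-1.02, adjusted p 0.101) or MYCN-low 72 h C (-1.03, adjusted p 0.0925) in the second. Their difference was 1.82 ± 0.41 (adjusted p 0.015), lost without MYCN-low untreated B (1.40, adjusted p 0.0646), MYCN-high untreated C (1.72, adjusted p 0.0616), MYCN-low 72 h B (1.84, adjusted p 0.0572) or MYCN-high 72 h C (1.51, adjusted p 0.0666). Per kilobase the COL6A1 to COL6A2 ratio was 1.00 to 2.41 in the MYCN-high and 0.627 to 0.944 in the MYCN-low libraries, without overlap.

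The 250 bases before COL6A2 are printed because the gene fell with doxorubicin in one state and rose in the other.
COL6A2, chr21:46097862-46098111, plus strand: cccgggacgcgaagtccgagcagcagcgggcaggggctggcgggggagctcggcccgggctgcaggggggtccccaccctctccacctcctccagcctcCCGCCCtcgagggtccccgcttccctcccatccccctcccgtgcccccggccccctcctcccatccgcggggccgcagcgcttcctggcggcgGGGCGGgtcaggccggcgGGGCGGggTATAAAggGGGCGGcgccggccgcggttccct
With the same motifs in capitals, it was 79.6% G and C, with 4 GC boxes, 1 TATAAA and no CCAAT or E-box.

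COL6A3, which encodes the long chain, had no called response without a block, and no test compared it with its partners. COL6A3 measured 2.78 and 1.2 CPM in untreated MYCN-high cells, 1.02 and 1 at 72 h, 0.87 and 0.178 at day 3, 1.12 and 2.32 at day 8 and 0.878 and 1.61 at day 14. MYCN-low cells held COL6A3 at 42.3 and 18 CPM untreated, 25.1 and 18.6 at 72 h, 46.6 and 19.2 at day 3, 91.1 and 31.4 at day 8 and 50.3 at day 14. MYCN-high cells were at most 2.78 CPM at every time and the state difference was -3.92 ± 0.65 (adjusted p 0.000379) untreated, -4.43 ± 0.69 (adjusted p 0.000232) at 72 h and -5.93 ± 0.77 (adjusted p 4.50e-05) at day 3, calls that held without each library. No response of COL6A3 was called in either state, but the replicate block called it at day 3 in MYCN-high cells (-1.90, adjusted p 0.0484), and its difference between the 72 h responses was -0.51 ± 0.92 (adjusted p 0.761). Per kilobase COL6A1 stood above COL6A3 by a median of 74.5 times in MYCN-high and 13.8 times in MYCN-low libraries. COL6A5 and COL6A6, alternatives to COL6A3, had 0 counts in all 10 MYCN-high libraries and at most 0.344 CPM in MYCN-low libraries.

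**Figure D5:**
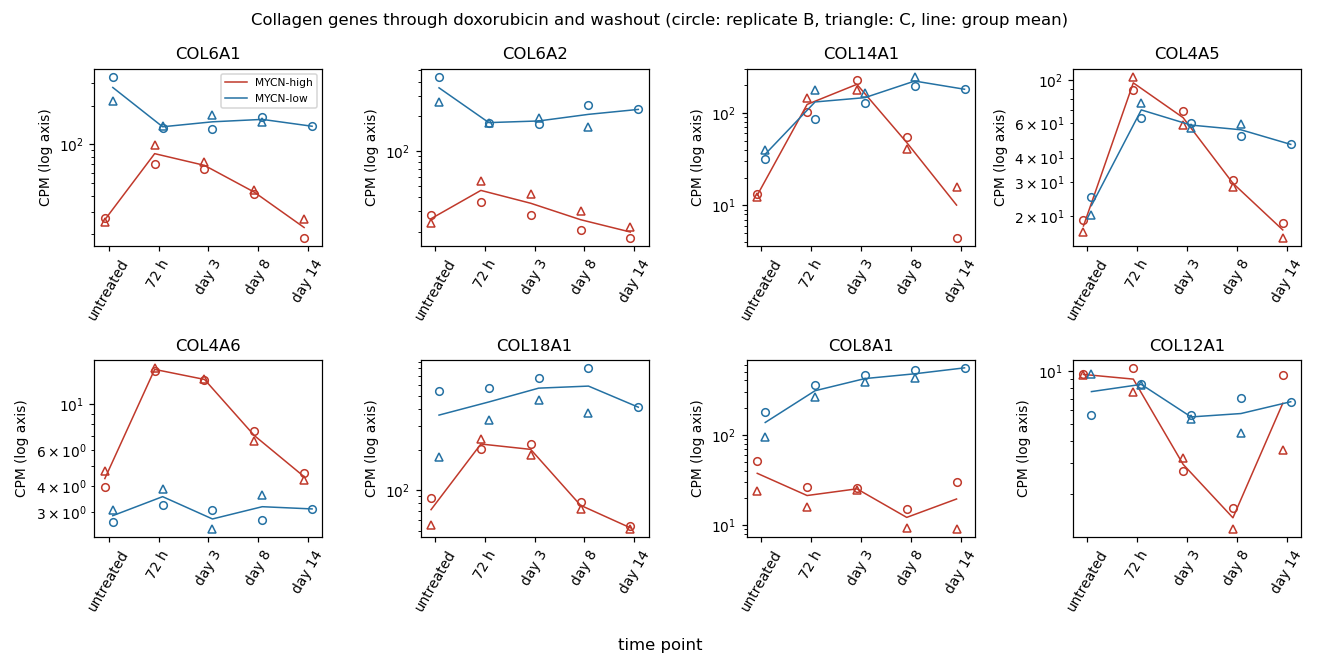
CPM (log axis) of 8 collagen genes at the 5 time points, in red for MYCN-high and blue for MYCN-low cells, with circles for replicate B, triangles for replicate C and lines through group means. COL6A1, COL14A1, COL4A5, COL4A6 and COL18A1 peak in MYCN-high cells at 72 h or day 3 and come down by day 14, and COL8A1 moves apart between the states.

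Among the other genes, COL14A1 rose in both states. It encodes type XIV collagen, a fibril-associated collagen with interrupted triple helices (FACIT). COL14A1 measured 13.4 and 12.4 CPM in untreated MYCN-high cells, 103 and 144 at 72 h, 229 and 178 at day 3, 54.6 and 40.9 at day 8 and 4.45 and 15.7 at day 14. MYCN-low cells held COL14A1 at 31.9 and 39.7 CPM untreated, 86.3 and 176 at 72 h, 129 and 163 at day 3, 195 and 246 at day 8 and 179.8 at day 14. The MYCN-high rise was 3.26 ± 0.44 (adjusted p 4.03e-05) at 72 h and 3.98 ± 0.45 (adjusted p 3.29e-05) at day 3, both kept without each library, and 1.89 ± 0.42 (adjusted p 0.0125) at day 8, lost without MYCN-high untreated B (1.96, adjusted p 0.0987), MYCN-high untreated C (1.83, adjusted p 0.0902) or MYCN-high day 8 B (1.67, adjusted p 0.0952). The MYCN-low rise was 1.87 ± 0.41 (adjusted p 0.00434) at 72 h, lost without MYCN-low 72 h C (1.25). It was 2.62 ± 0.42 (adjusted p 0.000403) at day 8, kept without each library. At day 14 it was 2.33 ± 0.47 (adjusted p 0.00355), kept without either untreated library, while the only day 14 library could not be left out. At day 14 the MYCN-high libraries were 3.53-fold apart, on either side of the untreated level. The difference between the day 14 responses was -2.67 ± 0.64 (adjusted p 0.0221), lost without MYCN-high untreated B (-2.63, adjusted p 0.0667) or MYCN-low untreated B (-2.52, adjusted p 0.0512).

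COL8A1, a short-chain collagen of the vessel wall and of Descemet's membrane, moved apart between the states. COL8A1 measured 51.2 and 23.7 CPM in untreated MYCN-high cells, 26.6 and 15.9 at 72 h, 25.8 and 24.6 at day 3, 15.1 and 9.28 at day 8 and 29.9 and 9.01 at day 14. MYCN-low cells held COL8A1 at 179.8 and 94 CPM untreated, 355 and 261 at 72 h, 457 and 381 at day 3, 518 and 429.6 at day 8 and 551 at day 14. In MYCN-low cells it rose, by 1.62 ± 0.46 (adjusted p 0.0202) at day 3, 1.79 ± 0.47 (adjusted p 0.0113) at day 8 and 2.01 ± 0.53 (adjusted p 0.0166) at day 14. In MYCN-high cells it fell at day 8 by -1.62 ± 0.48 (adjusted p 0.0494). With the replicate block COL8A1 was also called at 72 h, in MYCN-low (1.22, adjusted p 0.00585) and in MYCN-high cells (-0.78, adjusted p 0.047). The responses differed by -3.41 ± 0.67 (adjusted p 0.00986) at day 8 and -2.96 ± 0.71 (adjusted p 0.0225) at day 14. The day 8 difference was lost without MYCN-high untreated B (-2.75, adjusted p 0.0556) or MYCN-high day 8 C (-3.10, adjusted p 0.0629), and that of day 14 without MYCN-high untreated B (-2.31, adjusted p 0.101) or MYCN-high day 14 C (-2.36, adjusted p 0.0599). Among the rises, day 3 was lost without MYCN-low untreated C (1.20, adjusted p 0.111), MYCN-low day 3 B (1.47, adjusted p 0.097) or MYCN-low day 3 C (1.73, adjusted p 0.0523), day 8 without MYCN-low untreated C (1.42, adjusted p 0.0647) or MYCN-low day 8 B (1.68, adjusted p 0.0563) and day 14 without MYCN-low untreated C (1.64, adjusted p 0.0625), and the MYCN-high fall without MYCN-high untreated B (-0.94, adjusted p 0.43), MYCN-high day 8 B (-2.01, adjusted p 0.12) or MYCN-high day 8 C (-1.31, adjusted p 0.265). The state difference at 72 h, -3.85 ± 0.51 (adjusted p 6.36e-05), and at day 8, -5.28 ± 0.55 (adjusted p 3.86e-06), held without each library.

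COL12A1, another FACIT collagen, dipped in MYCN-high cells. COL12A1 measured 9.65 and 9.58 CPM in untreated MYCN-high cells, 10.5 and 7.61 at 72 h, 2.72 and 3.2 at day 3, 1.67 and 1.27 at day 8 and 9.6 and 3.58 at day 14. MYCN-low cells held COL12A1 at 5.66 and 9.69 CPM untreated, 8.47 and 8.4 at 72 h, 5.66 and 5.36 at day 3, 7.07 and 4.45 at day 8 and 6.72 at day 14. It fell by -1.70 ± 0.41 (adjusted p 0.00523) at day 3 and -2.70 ± 0.43 (adjusted p 0.00148) at day 8, both kept without each library. At day 14 replicate B stood at the untreated level and replicate C between that and the lows. The difference from the MYCN-low response at day 8 was -2.27 ± 0.57 (adjusted p 0.0303), lost without MYCN-high untreated B (-2.28, adjusted p 0.0875), MYCN-low untreated B (-1.94, adjusted p 0.0821), MYCN-high untreated C (-2.31, adjusted p 0.0696), MYCN-high day 8 B (-2.49, adjusted p 0.0601), MYCN-low day 8 B (-1.94, adjusted p 0.117) or MYCN-high day 8 C (-2.09, adjusted p 0.136). COL21A1, also a FACIT collagen, went the other way: it ranged from 0.509 to 1.06 CPM in untreated and 72 h MYCN-high libraries, was 3.53 and 1.90 CPM at day 3, 8.88 and 6.01 CPM at day 8 and 1.05 and 2.62 CPM at day 14, and lay between 0.483 and 2.27 CPM in all MYCN-low libraries. Its day 8 rise in MYCN-high cells was 3.58 ± 0.58 (adjusted p 0.00155) and held without each library.

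COL17A1, a transmembrane collagen of hemidesmosomes, peaked at 72 h in MYCN-high cells. COL17A1 measured 0.0487 and 0 CPM in untreated MYCN-high cells, 5.73 and 2.01 at 72 h, 0.544 and 0.949 at day 3, 0.325 and 0 at day 8 and 0.351 and 0 at day 14. MYCN-low cells held COL17A1 at 0.769 and 0.16 CPM untreated, 1.07 and 0.193 at 72 h, 0.634 and 0.253 at day 3, 0.982 and 0.552 at day 8 and 1.73 at day 14. Untreated MYCN-high cells had 1 COL17A1 count and 72 h cells 177, a ratio of 168 with a 95% counting interval of 29.7 to 6659 (adjusted p 0.00247). That call held without each library, whereas the difference from the MYCN-low response, with an adjusted p of 0.0492, was lost without any of 7 of the 8 libraries (5.08 to 8.85, adjusted p 0.0622 to 0.25): MYCN-high untreated B and C, MYCN-low untreated B, and all 4 libraries of 72 h. COL7A1 measured 0.536 and 0.601 CPM in untreated MYCN-high cells, 2.21 and 1.53 at 72 h, 1.2 and 1.66 at day 3, 2.05 and 0.897 at day 8 and 0.527 and 0.755 at day 14. MYCN-low cells held COL7A1 at 2.25 and 1.56 CPM untreated, 2.04 and 1.16 at 72 h, 0.905 and 0.354 at day 3, 1.87 and 1.1 at day 8 and 2.75 at day 14. COL7A1, which forms anchoring fibrils, differed between the day 3 responses by 2.89 ± 0.83 (adjusted p 0.0466), lost without MYCN-high untreated B (2.83, adjusted p 0.127), MYCN-low untreated B (2.60, adjusted p 0.125), MYCN-high untreated C (2.98, adjusted p 0.12), MYCN-high day 3 B (3.06, adjusted p 0.0831), MYCN-low day 3 B (3.74, adjusted p 0.051), MYCN-high day 3 C (2.63, adjusted p 0.154) or MYCN-low day 3 C (2.398, adjusted p 0.144). Its day 3 fall in MYCN-low cells was called with the replicate block (-1.61, adjusted p 0.0369) and not without it.

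COL8A2 measured 0.0975 and 0.0463 CPM in untreated MYCN-high cells, 0.424 and 0.574 at 72 h, 0.163 and 0.119 at day 3, 0.651 and 0.264 at day 8 and 0.0585 and 0.252 at day 14. MYCN-low cells held COL8A2 at 0.879 and 0.279 CPM untreated, 1.17 and 1.93 at 72 h, 1.09 and 0.607 at day 3, 0.982 and 1.24 at day 8 and 0.764 at day 14. COL8A2, the partner chain of COL8A1, had 3 counts in untreated MYCN-high and 23 in MYCN-low cells, a ratio of 7.46 with a 95% counting interval of 2.26 to 38.8 (adjusted p 0.0266). The call was lost without MYCN-high untreated B (-3.49, adjusted p 0.0727), MYCN-low untreated B (-1.88, adjusted p 0.23) or MYCN-high untreated C (-2.49, adjusted p 0.162). COL10A1 measured 0 and 0 CPM in untreated MYCN-high cells, 0.17 and 0.0478 at 72 h, 0.0544 and 0 at day 3, 0.0465 and 0 at day 8 and 0 and 0 at day 14. MYCN-low cells held COL10A1 at 0 and 0 CPM untreated, 0.341 and 0.724 at 72 h, 0.815 and 0.202 at day 3, 0.147 and 0.31 at day 8 and 0.611 at day 14. COL19A1 measured 0.39 and 0 CPM in untreated MYCN-high cells, 0.297 and 0.431 at 72 h, 0.272 and 0 at day 3, 0.697 and 0.158 at day 8 and 0.351 and 0.201 at day 14. MYCN-low cells held COL19A1 at 0 and 0 CPM untreated, 0.828 and 0.58 at 72 h, 0.679 and 0.0506 at day 3, 2.06 and 0.483 at day 8 and 0.56 at day 14. COL10A1, the type X collagen of growth cartilage, and COL19A1, a FACIT collagen, had 0 counts in untreated MYCN-low cells. Their group means were at least 7.68-fold and 10.1-fold higher there at 72 h, with adjusted p of 0.0242 and 0.0433. The COL10A1 call was lost without MYCN-low untreated B (6.49, adjusted p 0.0747), MYCN-low untreated C (6.46, adjusted p 0.0686) or MYCN-low 72 h C (5.84, adjusted p 0.0971), and that of COL19A1 without MYCN-low untreated B (6.89, adjusted p 0.128), MYCN-low untreated C (6.85, adjusted p 0.116), MYCN-low 72 h B (6.60, adjusted p 0.12) or MYCN-low 72 h C (7.10, adjusted p 0.0805); these values are fitted log2 changes against a group at 0 and are no bound.

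The remaining genes were low. COL13A1, COL16A1, COL9A2, COL9A3 and COL28A1 stayed at or below 8.3 CPM in all libraries, and COL25A1 at or below 0.393 CPM. COL13A1, a transmembrane collagen, was lower in MYCN-high cells at day 14 by -4.25 ± 0.95 (adjusted p 0.0022), which held without either MYCN-high library. COL9A2 was higher at day 3 by 2.38 ± 0.85 (adjusted p 0.0433), lost without MYCN-high day 3 B (2.21, adjusted p 0.141), MYCN-low day 3 B (2.04, adjusted p 0.21), MYCN-high day 3 C (2.50, adjusted p 0.0982) or MYCN-low day 3 C (2.76, adjusted p 0.103). The call also ended with DESeq2's Wald test (adjusted p 0.061) and without the filter (adjusted p 0.129). COL9A3 was higher over the mean of the times by 2.23 ± 0.88 (adjusted p 0.0402), which was lost in 12 of the 17 fits that left out a library and tested it (1.15 to 2.25, adjusted p 0.0534 to 1), those without the replicates MYCN-high untreated C, 72 h C, day 3 C and day 14 B and all MYCN-low replicates of the untreated, 72 h, day 3 and day 8 groups. It was also lost with DESeq2's Wald test (adjusted p 0.078) and without the filter (adjusted p 0.0575). No comparison called COL16A1 or COL28A1.

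Genes that act on collagen were examined from lists chosen by function, with earlier results of these data known. Their calls come from the main fit alone. Whether they hold without single libraries, with a block or under other scalings was not checked. Of 17 tested genes for hydroxylation, glycosylation and folding in the endoplasmic reticulum, 11 were lower and 1 higher in untreated MYCN-high cells (18.6% and 16.5% of all genes tested). P4HA2, a prolyl 4-hydroxylase subunit, averaged 33.6 CPM in MYCN-high and 172 CPM in MYCN-low cells, a difference of -2.35 ± 0.28 (adjusted p 4.41e-05). P4HB, the other subunit, averaged 711 and 1460 CPM (-1.04 ± 0.17, adjusted p 0.000352), and the lysyl hydroxylase PLOD1 59 and 151 CPM (-1.35 ± 0.23, adjusted p 0.000394). At 72 h 9 of the 17 rose in MYCN-high (18.3% of all genes) and 7 in MYCN-low cells (10.2%), and 0 fell. PLOD2 rose in MYCN-low cells, from 143 to 381 CPM, and FKBP10, a collagen chaperone, in MYCN-high cells, from 108 to 341 CPM (1.66 ± 0.23, adjusted p 4.83e-05).

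Of 13 genes for procollagen export and propeptide cleavage, 4 were lower and 1 higher in untreated MYCN-high cells (18.6% and 16.5% of all genes), and the median log2 difference was -0.02, against -0.04 over all genes. BMP1, the procollagen C-proteinase, averaged 11.5 and 69 CPM (-2.58 ± 0.44, adjusted p 0.000436), whereas MIA3, a procollagen export receptor, was higher, at 287 and 191 CPM (0.59 ± 0.21, adjusted p 0.0402). All 4 tested cross-linking enzymes, LOX, LOXL1, LOXL2 and LOXL3, were lower (18.6% of all genes). LOX averaged 27.7 and 138 CPM (-2.32 ± 0.49, adjusted p 0.00222) and LOXL2 35.2 and 153 CPM (-2.11 ± 0.40, adjusted p 0.000969). At 72 h in MYCN-high cells LOX fell by -2.27 ± 0.52 (adjusted p 0.00289) and LOXL1 rose by 1.07 ± 0.35 (adjusted p 0.0238).

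Of 8 tested receptor genes 7 were lower in untreated MYCN-high cells (18.6% of all genes). MRC2, which takes up cleaved collagen, averaged 72.6 and 274 CPM (-1.92 ± 0.23, adjusted p 4.04e-05), and ITGA11, an integrin chain for fibrillar collagen, 0.816 and 16 CPM (-4.28 ± 0.87, adjusted p 0.00163). At 72 h 5 receptors rose in MYCN-high cells (18.3% of all genes), among them the discoidin receptor DDR1 by 1.73 ± 0.20 (adjusted p 1.16e-05) and the integrin chain ITGA2 by 2.58 ± 0.36 (adjusted p 5.50e-05). The difference between the states' responses was 1.76 ± 0.49 (adjusted p 0.0336) for ITGA2. Of 6 tested small leucine-rich proteoglycans and collagen-binding proteins 5 were lower in untreated MYCN-high cells (18.6% of all genes), with SPARC at 478 and 2409 CPM (-2.33 ± 0.40, adjusted p 0.00051) and DCN (decorin) at 12.4 and 125 CPM (-3.34 ± 0.72, adjusted p 0.0025).

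Of 13 tested basement membrane partners 10 were lower in untreated MYCN-high cells (18.6% of all genes), including NID2 (nidogen 2) at 10 and 121 CPM (-3.60 ± 0.40, adjusted p 2.61e-05) and LAMB2, a laminin chain, at 25.7 and 144 CPM (-2.49 ± 0.24, adjusted p 1.04e-05). At 72 h 8 of the 13 rose and 1 fell in MYCN-high cells (18.3% and 17.9% of all genes), and 4 rose in MYCN-low cells (10.2%). The difference between the responses was called for 6 (10.7%), each higher in MYCN-high cells. LAMA4 went from 6.98 to 142 CPM in MYCN-high cells (4.34 ± 0.49, adjusted p 9.11e-06) and from 28 to 66.9 CPM in MYCN-low cells (1.26 ± 0.43, adjusted p 0.0491), a difference of 3.09 ± 0.63 (adjusted p 0.00929). HSPG2 (perlecan) rose from 31.4 to 182 CPM in MYCN-high cells (2.53 ± 0.32, adjusted p 2.34e-05). Of 7 collagen-cleaving proteases 5 were lower in untreated MYCN-high cells (18.6% of all genes), and MMP2 and MMP14 rose there at 72 h by 2.78 ± 0.42 (adjusted p 0.000112) and 2.36 ± 0.33 (adjusted p 5.12e-05), more than in MYCN-low cells by 2.70 ± 0.57 (adjusted p 0.0108) and 1.87 ± 0.44 (adjusted p 0.018).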

How the data were processed

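RNA sequencing was done on 19 libraries of SHEP TET21N cells. Per the submitters' processing notes, STAR 2.4.0h1, HTSeq and build hg19 were used; the annotation and strand setting are not given in the sources used here, so reads of overlapping or antisense genes cannot be told apart. Per the labels' protocols, ERCC RNAs were added, ribosomal RNA was removed and ScriptSeq libraries were made, while the molecule is labelled polyA RNA. The authors deposited raw counts per gene symbol (23367 genes and 92 ERCC RNAs). In R 4.3.3, ERCC RNAs were set aside and genes filtered with filterByExpr (14793 kept, 34 collagen genes among them). Counts were scaled by TMM and fitted with edgeR 4.0.16 (quasi-likelihood test, 1 coefficient per group, 9 residual degrees of freedom, biological coefficient of variation 0.204) in 18 contrasts, each adjusted by Benjamini-Hochberg. For the lone MYCN-low day 14 library the spread of the other groups is assumed. The duplicates give no other check of the spread. Standard errors are the log2 fold change divided by the root of F. Groups at 0 were given a floor of 3 counts over the group, and fold bounds divide the mean of the other group by that floor. Exon lengths are from GENCODE 29, and promoter windows and gene order from RefSeq, both GRCh38. A length is the union of the exons of all transcripts in the basic set. Exons not used in these cells lower the level per kilobase, so levels of different genes compare only roughly. The procedure was tested on simulated data.

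Values in every library are given for collagen genes with a mean of at least 5 CPM and for those called at a log2 fold change of 2 or more, in either direction, in the untreated state contrast, a 72 h response or a difference between responses. Of each list of collagen-acting genes, up to 4 were to be named by smallest p in untreated cells; others (MIA3 in untreated cells; FKBP10, PLOD2, ITGA2, LAMA4, LOXL1 and MMP2 among those at 72 h) were chosen after their values were seen. The genes and lists were chosen with earlier results of these data known. Alternatives were DESeq2 1.42.0 size factors, leaving out each library, scaling to ERCC counts, a replicate block by letter, DESeq2's Wald test, and testing without the filter. They were not used to check calls of genes that act on collagen. Figures used Python 3.11.15 and matplotlib 3.10.9. The labels do not say what letters B and C mark. Differences of B and C correlated, across genes, at 0.101 to 0.217 in all 10 pairs of MYCN-high groups. They correlated at 0.102 to 0.315 in all 6 pairs of MYCN-low groups, so the letters may pair the groups of a state. The main calls come from the fit without a block. Blocked values stand beside responses within a state whose call they change. Among differences between responses the block added COL8A1 at 72 h and day 3, given above. It also added COL14A1 (1.97, adjusted p 0.028) and COL6A2 (1.40, adjusted p 0.0476) at day 3, and COL4A2 at day 8 (-1.28, adjusted p 0.0264). COL5A3, at 0 counts in treated MYCN-high cells, was added at day 8 (adjusted p 0.0309) and day 14 (adjusted p 0.0422). Blocked values of calls added between the states at a single time are not given. The block was 1 letter effect shared by both states and does not model a separate pairing within each state. Between the states 6 of 20 pairs were above 0.1.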

Additional observations from a re-analysis of the deposited data

Results flagged for a closer look

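The response to treatment differed between the states, by a test of the difference itself (edgeR's quasi-likelihood test with Benjamini-Hochberg adjustment), in 22 cases among the collagen genes. They were 6 of 34 genes at 72 h, 7 at day 3, 6 at day 8 and 3 at day 14. Of all genes tested 10.7%, 7.58%, 6.35% and 7.41% were called. At day 14 the collagen share, 8.82%, was near that of all genes. Values are log2, MYCN-high response minus MYCN-low response, with standard error. At 72 h COL6A1 differed by 2.72 ± 0.32 (adjusted p = 0.000666), COL6A2 by 1.82 ± 0.41 (0.015), COL4A6 by 1.45 ± 0.35 (0.018), COL4A5 by 0.81 ± 0.25 (0.0484), COL5A1 by -1.79 ± 0.55 (0.0499) and COL17A1 by 6.53 ± 2.00 (0.0492). The last rests on 1 count in untreated MYCN-high cells. At day 3 COL6A1 differed by 2.29 ± 0.32 (0.00124), COL4A6 by 1.65 ± 0.35 (0.0111), COL7A1 by 2.89 ± 0.83 (0.0466), COL5A2 by -1.36 ± 0.32 (0.0202), COL5A1 by -2.33 ± 0.56 (0.0208), COL4A1 by -2.15 ± 0.56 (0.0311) and COL4A2 by -1.75 ± 0.47 (0.0359).

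At day 8 COL8A1 differed by -3.41 ± 0.67 (0.00986), COL6A1 by 1.54 ± 0.32 (0.0126), COL5A2 by -1.48 ± 0.32 (0.016), COL12A1 by -2.27 ± 0.57 (0.0303), COL4A1 by -2.15 ± 0.56 (0.0351) and COL11A1 by -9.47 ± 2.66 (0.049), whose MYCN-high day 8 libraries had 0 counts, so that the fitted value is no bound. At day 14 COL8A1 differed by -2.96 ± 0.71 (0.0225), COL14A1 by -2.67 ± 0.64 (0.0221) and COL4A5 by -1.12 ± 0.28 (0.025). COL6A1 at 72 h and day 3 were the cases that held in all 8 fits without 1 library. The difference was lost without at least 1 library in each of the other 20. At 72 h COL4A5 and COL5A1 also missed the threshold with DESeq2 size factors (adjusted p 0.0552 and 0.052). Under ERCC scaling 0 of the 22 remained called, and in the 72 h difference 0 of all genes tested were called.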

How the results depend on the processing

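Of 210 calls of a collagen gene in a comparison, 208 held with DESeq2 size factors, 207 with DESeq2's Wald test, 207 without a filter on low counts, and 210 with the replicate block (letters B and C as a block). The block ended no call and added 23: counts went from 16 to 17 (untreated) and 14 to 17 (72 h) between the states, from 10 to 13 at day 3 in MYCN-high and 13 to 16 at 72 h in MYCN-low cells, and from 7 to 10 in the day 3 difference, with smaller changes elsewhere. Leaving out 1 library kept 962 call values and lost 265, with 0 reversed; the MYCN-low day 14 library could not be left out. ERCC scaling kept 11, and moved the median log2 change of all genes by up to 2.51.

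Without a library, counts called between the states ran from 9 to 18 (untreated), 12 to 13 (72 h), 12 to 18 (day 3), 19 to 23 (day 8), 19 to 20 (day 14) and 22 to 26 (mean). In MYCN-high responses they ran from 5 to 7 (72 h), 6 to 7 (day 3), 2 to 3 (day 8) and 0 to 0 (day 14), in MYCN-low responses from 5 to 11, 4 to 11, 4 to 13 and 5 to 6, and in the differences from 1 to 7, 1 to 9, 0 to 8 and 0 to 6. Without a filter, which tested more genes, 16, 12 and 5 were called at days 3, 8 and 14 in MYCN-high cells (4925, 2080 and 309 of all genes). It gave 19 and 13 at days 8 and 14 in MYCN-low cells (4116 and 3262 of all genes). In the differences it gave 12 at 72 h (2627 of all genes) and 15, 14 and 10 at days 3, 8 and 14. The Wald test called 8 at day 8 in MYCN-high cells (2056 of all genes) and 11, 10 and 6 in the differences at days 3, 8 and 14. Calls over all genes are not given for the differences at days 3, 8 and 14, so these counts do not single out collagen genes. The cause of the changed counts was not tested. ERCC scaling called 0 between the states at each time to day 8, 1 at day 14 and 9 over the mean, 1 at 72 h in MYCN-high cells, and 0 in the other responses and the differences. Over all genes it called 0, 5, 4, 0 and 31 between the states at the 5 times and 1947 over the mean.

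ERCC scaling reversed 9 called log2 values. Between the states these were COL6A1 at 72 h (1.59) and day 3 (0.71), COL6A2 at 72 h (0.29), COL18A1 at day 3 (0.24), and COL12A1 (0.56) and COL4A5 (0.59) over the mean of the times. In responses they were COL5A1 at 72 h (1.26) and COL4A2 at day 3 (0.62) in MYCN-high cells and COL6A1 at day 8 (0.37) in MYCN-low cells. The cause was not tested.

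Genes such as COL10A1, COL11A1, COL17A1 and COL19A1 rest on few counts, and 2 libraries a group leave small differences undetected.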
